A study of Macaca mulatta with 12 samples.

Results

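The 10 genes described here encode complement proteins, surface receptors and transcription factors of myeloid cells. They are C1QB, C1QC, C3, TREM2, CD14, ITGAM, MRC1, IRF8, SPI1 and RUNX1. They were chosen by name, with earlier results of these data known. All 10 have a row among the 19708 gene rows of the deposited count table. RNA was measured in single nuclei from surgically removed, frozen amygdala of rhesus macaques (Macaca mulatta). All 12 labelled samples belong to 1 group, with no treatment, genotype, age or sex in the labels used here. Titles carry specimen numbers up to 3. The genes were followed across marker-defined microglia, vascular cells, astrocytes and neurons.

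Complement is a set of proteins that tag cells, debris and, in the developing mouse brain, synapses for removal. C1q, built from the chains C1QA, C1QB and C1QC, starts the classical pathway, and C3 is the protein on which all complement pathways converge. Microglia, the resident macrophages of the brain, sense such tags and other signals through receptors such as TREM2, CD14 and the integrin that ITGAM helps to form. IRF8, SPI1 and RUNX1 are transcription factors that set up the myeloid lineage, and MRC1, the mannose receptor, is known as a marker of macrophages at brain borders and vessels.

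The table held 151526883 unique molecular identifiers (UMIs, 1 for each captured transcript) in 26400 nuclei. After 1862 presumed doublets were left out, 24538 nuclei were clustered without the 10 genes. Barcodes carry 3 suffixes, called barcode sets here, and 68 barcodes occur in more than 1 set. No label ties a set to an animal or sample, so all nuclei count as 1 sample. There is no replicate error, and no difference below has a test. Each 95% interval covers counting error only, and PCR or animal variation lies outside it. Names stand for clusters that resemble a cell type by its markers.

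Microglia were 192 nuclei (0.782% of those kept) with 243150 UMIs and a median of 1109 UMIs per nucleus. All 16 microglial markers were detected in them, at 8715 CPM in sum, against 72.3 to 636 CPM in the other 9 named classes. CPM are the UMIs of a gene per 1000000 UMIs summed over the nuclei of a group. T-cell markers summed to 17 UMIs in microglia with CD3E at 0, B-cell markers to 10 UMIs with CD79A and CD79B at 0, and granulocyte or monocyte markers to 9 UMIs with CSF3R at 0. Of the 6 granulocyte or monocyte markers only 3 had a row, and VCAN among them is also a marker of oligodendrocyte precursors. Monocytes were thus poorly covered by markers. Inhibitory-neuron markers reached 2044 CPM in microglia, against 12083 CPM in inhibitory neurons, and astrocyte markers 1912 CPM, against 15877 CPM in astrocytes. Excitatory-neuron markers reached 1616 CPM in microglia, against 4453 CPM in excitatory neurons. The part of that RNA in the results was not tested. The vascular group joined 136 endothelial and 179 mural nuclei, with a median of 1499 UMIs. Fibroblast markers also scored high in the mural cluster (3.84 on the log2 scale, against 4.69 for mural markers). Astrocytes were 5854 nuclei with a median of 1742 UMIs, and neurons 15216 nuclei with a median of 7057. At these depths 1 UMI is worth 4.11 CPM in microglia, 1.65 in vascular cells, 0.0956 in astrocytes and 0.00844 in neurons.

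All 10 genes were highest in microglia. Each was at least 2-fold higher there than in the mean of vascular cells, astrocytes and neurons. Over all 8809 genes measured, 17.6% passed that mark upwards and 15.2% downwards. A gene counted as measured with at least 10 UMIs in total and at least 5 expected in each group at the higher level. For the 9 genes other than SPI1 the other groups were too low for this. They were measured only through their microglial level and then had to pass, so the 17.6% is no like background for them. The median log2 ratio of the 10 genes was 5.63, beside 0.14 for all genes measured. RUNX1, ITGAM and MRC1 had the most UMIs in microglia (84, 81 and 72), and C1QC, CD14 and TREM2 the fewest (16, 18 and 20). SPI1 stood apart, with the smallest ratio, 5.28-fold. The mean of the other 3 groups was 21.8 CPM for SPI1 and 0.484 to 6.26 CPM for the other 9 genes.

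**Figure D1:**
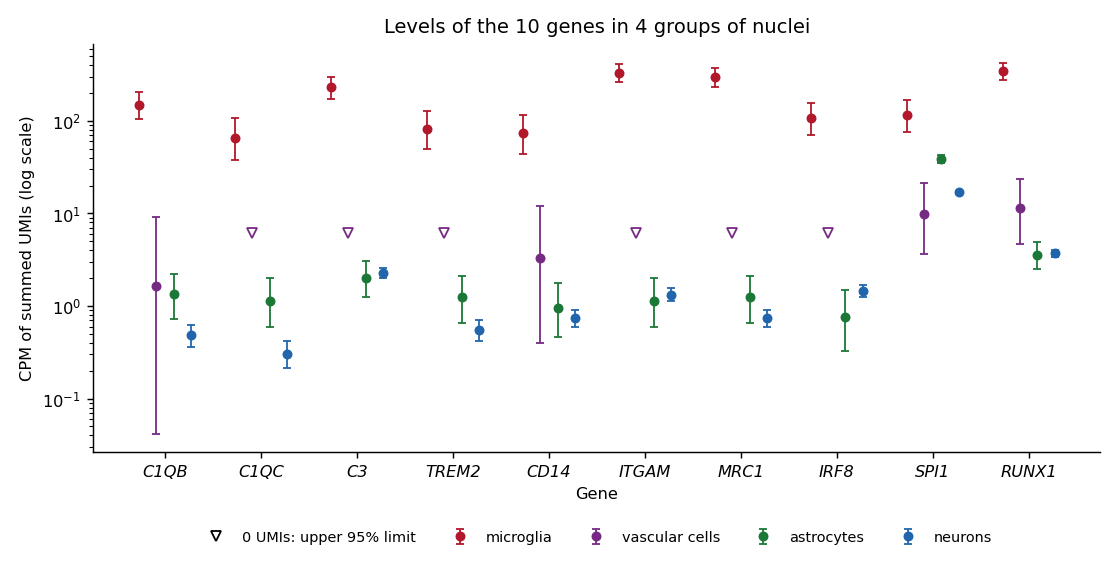
CPM of the 10 genes on a log axis in microglia, vascular cells, astrocytes and neurons, from left to right within each gene. Dots are CPM of summed UMIs, bars exact 95% Poisson intervals, and open triangles the upper limit where no UMI was found. All 10 microglial values lie above the other 3 groups, and SPI1 has the smallest gap, with 115 CPM in microglia and 38.6 CPM in astrocytes.

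Among the complement genes, the C1q chain C1QB stood at 148 CPM in microglia (interval 104 to 205, 36 UMIs). It stood at 1.65 CPM in vascular cells (1 UMI), 1.34 in astrocytes (14 UMIs) and 0.481 in neurons (57 UMIs). The ratio of microglia to the mean of the other groups was 7.0 on the log2 scale (5.54 to 8.46). C1QC, the neighbouring chain gene, stood at 65.8 CPM in microglia (37.6 to 107, 16 UMIs), at 0 in vascular cells, 1.15 in astrocytes and 0.304 in neurons. Vascular cells had no UMI of it, so its ratio is a lower bound, at least 4.95 on the log2 scale. C1QA, the third chain, had no row under that symbol in the deposited table.

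C3 stood at 230 CPM in microglia (174 to 299, 56 UMIs), at 0 in vascular cells, 2.01 in astrocytes (1.24 to 3.07) and 2.28 in neurons (2.02 to 2.57). Its log2 ratio was at least 6.22. C3 is known in mouse and human as a gene that reactive astrocytes can switch on. Here the astrocyte sub-cluster highest in GFAP, which encodes the main astrocyte filament protein, had 3 C3 UMIs in 361 nuclei, or 4.65 CPM (0.960 to 13.6), at 1969 CPM of GFAP. The 2 large astrocyte sub-clusters had 2.41 CPM of C3 at 210 CPM of GFAP and 1.31 CPM at 357 CPM of GFAP. All these intervals overlap, so no C3 difference between astrocyte sub-clusters was detectable at this depth. In oligodendrocyte precursors C3 reached 7.0 CPM (2.57 to 15.2), from 6 UMIs.

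Of the receptors, TREM2, which binds lipids and lipoproteins, stood at 82.3 CPM in microglia (50.2 to 127, 20 UMIs), at 0 in vascular cells, 1.24 in astrocytes and 0.549 in neurons. CD14, a co-receptor for bacterial lipopolysaccharide, stood at 74.0 CPM in microglia (43.9 to 117, 18 UMIs), 3.30 in vascular cells (2 UMIs), 0.956 in astrocytes and 0.743 in neurons. Both were thinly counted in microglia, and outside it each group's level came to few UMIs per nucleus. Their log2 ratios were at least 5.19 for TREM2 and 5.47 for CD14 (3.98 to 6.96).

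ITGAM, the alpha chain of an integrin that binds cleaved C3, stood at 333 CPM in microglia (265 to 414, 81 UMIs), at 0 in vascular cells, 1.15 in astrocytes and 1.33 in neurons. MRC1 stood at 296 CPM in microglia (232 to 373, 72 UMIs), at 0 in vascular cells, 1.24 in astrocytes and 0.743 in neurons. The log2 ratios were at least 7.07 for ITGAM and at least 7.0 for MRC1. Oligodendrocytes had 6 MRC1 UMIs, or 7.82 CPM (2.87 to 17.02). Endothelial and mural cells had none, which allows up to 11.5 CPM in endothelial and 12.9 CPM in mural cells.

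Of the transcription factors, RUNX1 stood at 345 CPM in microglia (276 to 428, 84 UMIs), 11.6 in vascular cells (7 UMIs), 3.54 in astrocytes and 3.70 in neurons. IRF8 stood at 107 CPM in microglia (69.9 to 157, 26 UMIs), at 0 in vascular cells, 0.765 in astrocytes (8 UMIs) and 1.46 in neurons (173 UMIs). Both were far above the other groups in microglia, with log2 ratios of 5.79 for RUNX1 (5.05 to 6.52) and at least 5.48 for IRF8. SPI1 stood at 115 CPM in microglia (76.5 to 166, 28 UMIs), 9.90 in vascular cells (6 UMIs), 38.6 in astrocytes (404 UMIs) and 16.9 in neurons (2007 UMIs). Its log2 ratio was 2.40 (1.83 to 2.97), and 1.12 when the presumed doublets were kept. That setting joined 405 nuclei as microglia.

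The order below microglia differed from gene to gene. C1QB was next highest in vascular cells, then astrocytes, then neurons, with intervals that overlapped between vascular cells and astrocytes but not between astrocytes and neurons. C1QC was higher in astrocytes than in neurons without overlap of intervals, and so was SPI1. RUNX1 was next highest in vascular cells, whose interval did not overlap that of neurons. For C3, TREM2, CD14, ITGAM, IRF8 and MRC1 the intervals of every pair of neighbours below microglia overlapped.

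Deeper nuclei show more genes, so shares of nuclei with a UMI were taken after every nucleus was thinned to 500 UMIs. This left out 3 microglia, 6 astrocytes, 2 neurons and no vascular nucleus. Of the 189 microglia left, ITGAM was found in 16.9% (11.9 to 23.1%), RUNX1 in 15.3%, MRC1 in 14.8% and C3 in 13.2%. In neurons the shares were 0.0394% for ITGAM, 0.204% for RUNX1, 0.0263% for MRC1 and 0.105% for C3. Whether these neuronal UMIs are background was not tested. SPI1 was found in 5.29% of microglia (2.57 to 9.51%), 2.09% of astrocytes and 0.914% of neurons. C1QB was found in 4.23% of microglia and 0.0329% of neurons, and the shares of C1QC, TREM2, CD14 and IRF8 in microglia lay between 2.65 and 3.70%. Without thinning SPI1 was found in 13.02% of microglia and 11.8% of neurons at their unequal depths (medians of 1109 and 7057 UMIs), and the intervals of those shares overlapped (8.61 to 18.6% and 11.3 to 12.4%). Per 1000 nuclei SPI1 had 146 UMIs in microglia, 19.05 in vascular cells, 69.0 in astrocytes and 132 in neurons. The unthinned shares in microglia were 34.4% for ITGAM, 28.6% for RUNX1, 26.6% for MRC1 and 21.9% for C3.

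Microglia numbered 61, 62 and 69 in barcode sets 1, 2 and 3. ITGAM stood at 304, 270 and 419 CPM in those sets, MRC1 at 385, 243 and 251 CPM, and RUNX1 at 385, 325 and 323 CPM. C3 stood at 164, 284 and 251 CPM, and IRF8 at 128, 67.6 and 120 CPM. The sets overlapped widely for these 5 genes. C1QB was the most uneven, with 16, 4 and 16 UMIs, or 187, 54.1 and 191 CPM, though its intervals in the 3 sets also overlapped. No gene of the 10 came from 1 set alone.

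**Figure D2:**
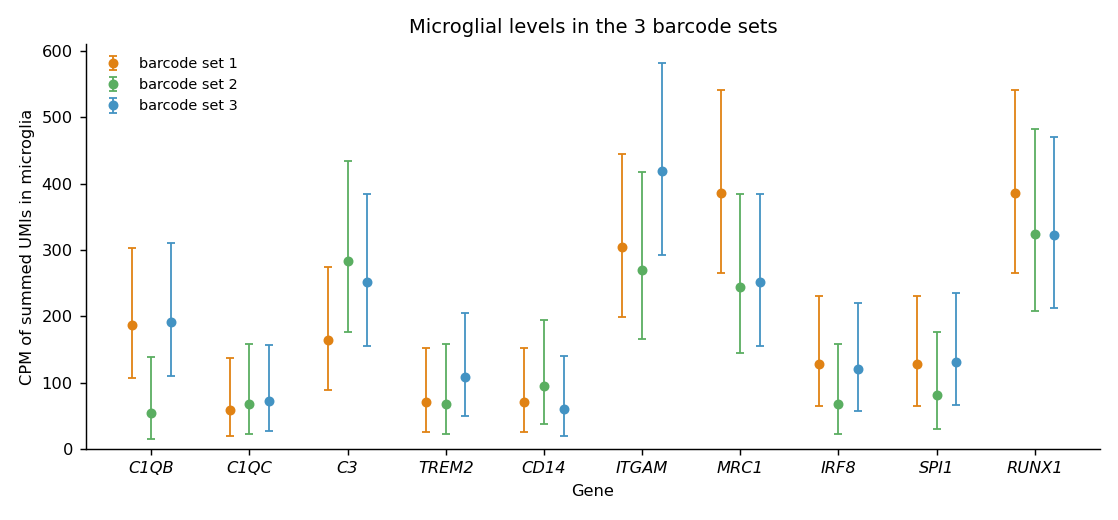
CPM of the 10 genes in microglia of barcode sets 1, 2 and 3, on a linear axis. Dots are CPM of summed UMIs and bars exact 95% Poisson intervals. The bars of the sets overlap for every gene, and C1QB has the lowest set, at 54.1 CPM in set 2.

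Most microglial nuclei showed few of the genes at once. Any of the 10 was found in 147 of the 192 nuclei, and 2 or more in 97. The 45 nuclei with none had a median of 1007 UMIs, against 1148 in the 147 others. MRC1 was found in 51 nuclei, and these held CX3CR1, the fractalkine receptor typical of microglia, in 14 of 51, against 62 of 141 nuclei without MRC1. Other microglial markers did not share this. P2RY12 was found in 25 of 51 nuclei with MRC1, against 66 of 141 without, and CSF1R in 22 of 51, against 44 of 141. F13A1, which encodes the coagulation factor chain made by tissue macrophages, was found in 10 of the 51 and in 0 of the 141.

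The 10 nuclei with an F13A1 UMI carried a large part of the C1QB and CD14 counts. They held 25 of the 36 microglial C1QB UMIs (69.4%) and 13 of the 18 CD14 UMIs (72.2%), but 2 of the 56 C3 UMIs and 0 of the 26 IRF8 UMIs. F13A1 was picked for this split after its values had been seen, and no test was made. The 10 nuclei lay in the microglia cluster, and whether they are microglia or other brain macrophages was not tested. Each of the 10 held from 2 to 51 F13A1 UMIs. Their median was 2302 UMIs per nucleus, against 1103 in the other 182, and 7 of the 10 came from set 1, 2 from set 2 and 1 from set 3.

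C1QB stood at 962 CPM in the nuclei with F13A1 (622 to 1420), against 50.7 CPM in those without (25.3 to 90.6). The single nucleus with the most C1QB held 11 UMIs and had F13A1. CD14 stood at 500.2 CPM with F13A1 (266 to 855), against 23.02 CPM without (7.48 to 53.7). RUNX1 stood at 923 CPM with F13A1 (592 to 1374), against 276 CPM without (211 to 356). MRC1 was found in 10 of the 10 nuclei, at 731 CPM (440.1 to 1142), against 41 of 182 nuclei and 244 CPM (183 to 319). The intervals of these 4 genes did not overlap, and neither did those of C1QC and TREM2, both at 269 CPM with F13A1 (108 to 555), against 41.4 CPM of C1QC (19.0 to 78.7) and 59.9 CPM of TREM2 (31.9 to 102) without.

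C3 stood at 77.0 CPM with F13A1 (9.32 to 278), against 249 CPM without (187 to 324). IRF8 was at 0 with F13A1, which allows up to 142 CPM, against 120 CPM without (78.2 to 175). For C3, IRF8, ITGAM and SPI1 the intervals of both kinds of nuclei overlapped. Of the other 9 macrophage-list genes with a row, 5 were higher with F13A1 without overlap of intervals. The scavenger receptor gene CD163 stood at 423 CPM with it, against 55.3 CPM without, the hyaluronan receptor gene LYVE1 at 731 against 9.21 CPM, and the scavenger receptor gene COLEC12 at 846 against 18.4 CPM. SELENOP, a selenoprotein, stood at 654 CPM, against 36.8 CPM, and CD163L1, a relative of CD163, at 346 against 23.02 CPM. The intervals overlapped for the other 4, with STAB1 at 770 against 525 CPM, MS4A7 at 500.2 against 253 CPM, FOLR2 at 269 against 73.7 CPM and CLEC10A at 1 UMI in each kind of nuclei. CX3CR1 had 1 UMI in the 10 nuclei with F13A1 (38.5 CPM, 0.974 to 214), against 122 UMIs in the 182 without (562 CPM, 467 to 671). P2RY12, a purine receptor typical of microglia, stood at 539 CPM, against 635 CPM, with overlapping intervals.

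The 16 microglial markers were all detected in the nuclei with F13A1, at 7041 CPM in sum, against 8915 CPM without. Of the marker lists of other cell types, those of 2 were higher in sum with F13A1. Endothelial markers summed to 616 CPM (16 UMIs, 5 of 14 markers detected), against 336 CPM (73 UMIs, 12 of 14 detected), with CLDN5 and KDR at 0 in all microglia. Granulocyte or monocyte markers, of which 3 of 6 had a row, summed to 154 CPM (4 UMIs), against 23.02 CPM (5 UMIs). The part of either in these differences was not tested. The other 12 lists were lower in sum with F13A1, among them inhibitory-neuron markers (808 against 2192 CPM), astrocyte markers (616 against 2068 CPM), mural markers (1 UMI) and fibroblast markers (0 UMIs). The median doublet score was 0.0410, against 0.0353. Without the 10 nuclei, the microglial log2 ratio of C1QB was 5.45 and that of CD14 3.79, and all 10 genes were still at least 2-fold higher in microglia than in the mean of the other 3 groups. C1QB in the remaining nuclei came to 6, 0 and 5 UMIs in the 3 barcode sets, so all 4 of its UMIs in set 2 lay in nuclei with F13A1.

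**Figure D3:**
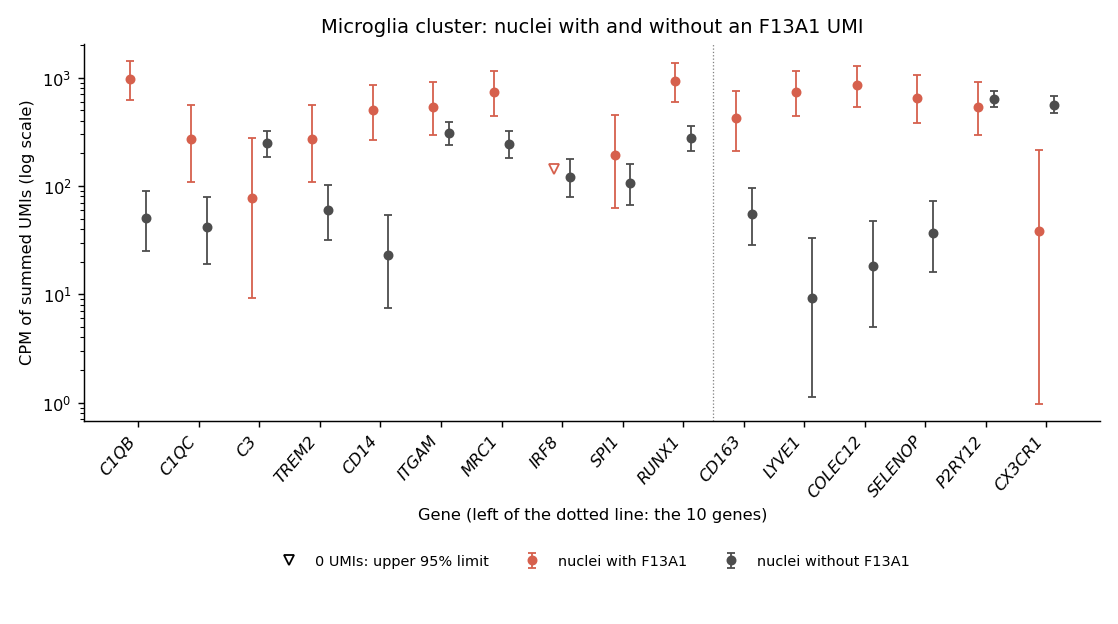
CPM on a log axis in the 10 nuclei of the microglia cluster with an F13A1 UMI (red) and the 182 without (grey). Dots are CPM of summed UMIs, bars exact 95% Poisson intervals, and the open triangle the upper limit at 0 UMIs. C1QB, CD14, CD163, LYVE1, COLEC12 and SELENOP lie higher with F13A1, CX3CR1 lower, and P2RY12 at like levels (539 and 635 CPM).

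A further 120 nuclei (sub-cluster 2 of cluster 9, median of 3263 UMIs) held microglial and astrocyte markers together and stayed unnamed, since their median doublet score was 0.102. In them C3 stood at 123 CPM, ITGAM at 132, RUNX1 at 145, MRC1 at 130 and IRF8 at 63.7 CPM, each below its microglial level in CPM. Per 1000 nuclei, at medians of 3263 and 1109 UMIs, each had more UMIs than in microglia. C3 had 467 against 292, ITGAM 500 against 422, RUNX1 550 against 438, MRC1 492 against 375 and IRF8 242 against 135. By this measure C1QB, C1QC and CD14 were lower than in microglia. C1QB stood at 11 CPM from 5 UMIs, with AQP4, the astrocyte water channel, at 173 CPM. With these nuclei counted as microglia, all 10 genes were still at least 2-fold higher in microglia than in the mean of the other groups.

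In vascular cells, 6 of the 10 genes (C1QC, C3, TREM2, ITGAM, IRF8 and MRC1) had no UMI among 605913, which allows up to 6.09 CPM each. Of the 2 genes measured against the mean of astrocytes and neurons, RUNX1 was higher, with a log2 ratio of 1.68 (0.58 to 2.77), and SPI1 was lower (-1.49, from -2.65 to -0.33). RUNX1 was too low in astrocytes and neurons to be measured except through its vascular level. Across all 11120 genes measured in this comparison 16.8% passed the 2-fold mark upwards and 11.9% downwards. All 7 RUNX1 UMIs lay in mural cells, at 24.5 CPM (9.87 to 50.6), against 0 in endothelial cells, whose upper limit is 11.5 CPM. They lay in 7 nuclei, with 1, 5 and 1 UMIs in the 3 barcode sets, and without set 2 the gene no longer passed.

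Astrocytes and neurons both held the 10 genes at low levels. Against neurons, 4 of the 10 were at least 2-fold higher in astrocytes, and none at least 2-fold lower, where 19.1% of all 15892 genes measured were higher and 14.9% lower. They were C1QC (log2 ratio 1.92, 0.97 to 2.86), C1QB (1.48, 0.63 to 2.32), SPI1 (1.19, 1.03 to 1.34) and TREM2 (1.18, 0.32 to 2.04). The values of C1QB, C1QC and TREM2 rest on 14, 12 and 13 UMIs in astrocytes. Per 1000 nuclei, astrocytes held 2.39 UMIs of C1QB and neurons 3.75, astrocytes 2.05 of C1QC and neurons 2.37, astrocytes 2.22 of TREM2 and neurons 4.27, and astrocytes 69.0 of SPI1 and neurons 132. Per nucleus none of these 4 genes was thus higher in astrocytes, whereas per 1000000 UMIs all 4 were. After thinning to 500 UMIs, 3 of the 10 genes could be measured, and 1 was at least 2-fold higher. The part of free RNA from other cells in these levels was not tested. The ratio of IRF8 was -0.93 (-1.96 to 0.09), and that of C3 was -0.18 (-0.82 to 0.46).

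Among neurons IRF8 was uneven. Excitatory neurons had 162 UMIs of it (1.73 CPM, 1.47 to 2.01) and inhibitory neurons 11 UMIs (0.447 CPM, 0.223 to 0.799). Cluster 7, the excitatory cluster highest in PROX1, a transcription factor typical of granule cells of the dentate gyrus, held 102 of those 162 UMIs in 5165 nuclei. Its level was 3.33 CPM (2.71 to 4.04), against 0.950 CPM in the 5971 other excitatory nuclei (0.725 to 1.22). The ratio was 3.50 (2.52 to 4.90), and within barcode sets 1, 2 and 3 it was 4.46, 2.71 and 3.34. This split was chosen after the values had been seen.

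In the same cluster RUNX1 stood at 4.96 CPM, against 3.23 CPM in the other excitatory nuclei, a ratio of 1.53 (1.24 to 1.90). SPI1 stood at 12.1 CPM, against 17.8 CPM, a ratio of 0.678 (0.601 to 0.763). The intervals of the ratio included 1 for each of the other 7 genes. Its median doublet score was 0.0705, against 0.0373 to 0.0565 in the other 5 excitatory clusters of the first level (clusters 2, 3, 6, 13 and 15), and its part in the IRF8 level was not tested. Within cluster 7, IRF8 ranged from 1.47 CPM in sub-cluster 1 to 5.14 CPM in sub-cluster 3 (3.94 to 6.58), which held 62 of the 102 UMIs.

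**Figure D4:**
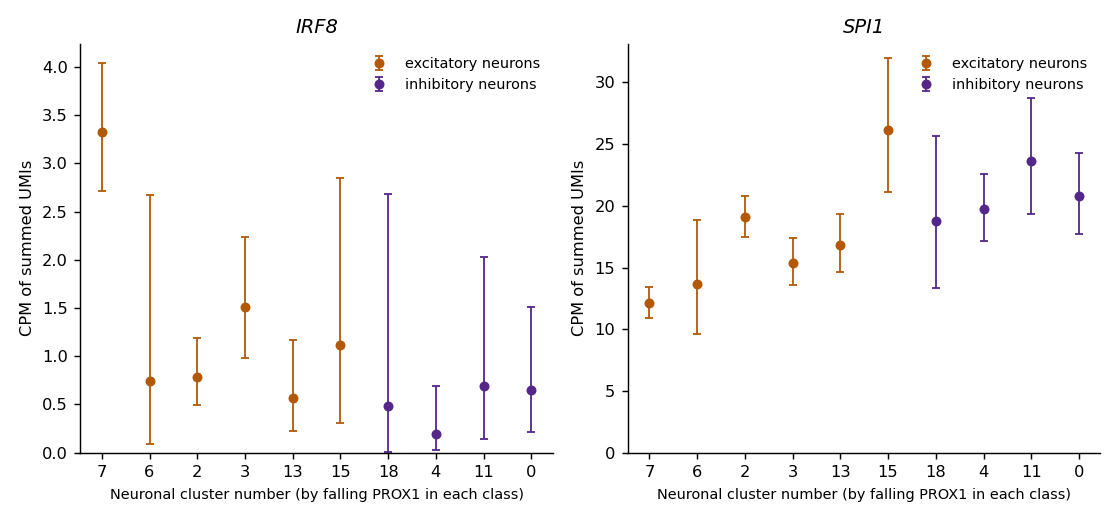
CPM of IRF8 (left) and SPI1 (right) in the 10 first-level neuronal clusters, ordered by falling PROX1 within excitatory and inhibitory neurons. Dots are CPM of summed UMIs and bars exact 95% Poisson intervals. IRF8 is highest in cluster 7, at 3.33 CPM, where SPI1 is lowest, at 12.1 CPM.

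SPI1 was present in every neuronal cluster, from 12.1 CPM in cluster 7 to 26.1 CPM in cluster 15, and in the large astrocyte sub-clusters at 43.2 and 36.4 CPM. In astrocytes 404 SPI1 UMIs stood beside 12 ITGAM UMIs, in neurons 2007 beside 157, and in microglia 28 beside 81. The counts of the 2 genes thus stood in another proportion in both groups than in microglia. In the 3 barcode sets SPI1 stood at 33.7, 39.0 and 43.5 CPM in astrocytes and at 15.3, 18.4 and 17.2 CPM in neurons, so astrocytes were higher by CPM in each set. SLC39A13, a zinc transporter gene beside SPI1, stood at 12.3 CPM in microglia, 19.8 in vascular cells, 23.5 in astrocytes and 17.6 in neurons. Whether reads of one gene were counted for the other was not tested, and the strand setting of the counting is not given in the sources used here.

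A list of 43 other complement genes had 35 rows in the table, of which 18 were measured in microglia. Of these, 7 passed the 2-fold mark upwards and 2 downwards against the mean of the other groups, with a list median of 0.22 on the log2 scale. Over all genes measured these shares were 17.6% and 15.2%. Most of the 7 could be measured only through their microglial level, so the 17.6% is no like background for them. The higher genes were CFD, the protease that starts the alternative pathway (94.6 against 1.73 CPM), the receptors C5AR1 (74.03 against 2.89 CPM) and C3AR1 (at least 4.74 on the log2 scale), and ITGB2, the partner chain of ITGAM (at least 4.65). CFB, the other component of the alternative convertase, stood at 65.8 CPM, against 13.2 CPM. CD55 and CD46, which protect the cell's own surface, stood at 345 and 358 CPM in microglia, against 18.2 and 129 CPM. The lower genes included CSMD1, a neuronal complement regulator (1567 against 4174 CPM).

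A list of 53 myeloid receptor genes had 48 rows and 29 measured genes, of which 28 were at least 2-fold higher in microglia and none at least 2-fold lower, with a median log2 ratio of 3.88. The largest ratios were those of the cytokine receptor gene CSF2RA (218 against 1.62 CPM), the Fc receptor signalling chain FCER1G (115 against 1.49 CPM), CD4 (255 against 3.74 CPM) and the chemokine receptor CCR1 (24.7 against 0.634 CPM). CCR1 rests on 6 microglial UMIs. TLR4, the lipopolysaccharide receptor with which CD14 works, stood at 61.7 CPM and at least 5.05 on the log2 scale. HAVCR2 stood at 5.04 on that scale, MSR1 at least at 5.01 and MS4A4A at least at 4.91. SCARB1 was the measured gene below the mark, at 0.79. Most genes measured from this list were low outside microglia and entered only through their microglial level. Such genes then had to pass, so the count of 28 was largely fixed by the rule for measured genes. The shares over all genes measured, 17.6% upwards and 15.2% downwards, are no like background for them. Without the 10 nuclei with F13A1, 20 genes of this list could be measured and 18 passed.

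Of 37 other myeloid transcription factor genes, 26 were measured in microglia against the mean of the other groups. Of these, 17 passed the mark upwards and 3 downwards (median 1.58). Over all genes measured these shares were 17.6% and 15.2%. Some of the 17 could be measured only through their microglial level. FLI1, among the 17, stood at 629 CPM in microglia but had a higher CPM in vascular cells. IKZF1, a lymphoid and myeloid zinc-finger factor, reached 543 CPM, against 0.824 CPM. BATF3 (98.7 against 1.02 CPM), MAF (321 against 7.90 CPM), LYL1 (24.7 against 0.732 CPM), IRF5 (53.5 against 0.547 CPM) and SALL1 (69.9 against 8.29 CPM) followed. LYL1 rests on 6 microglial UMIs. RUNX2, a relative of RUNX1, stood at 510 CPM, against 82.6 CPM, and BHLHE41 at 61.7 against 12.5 CPM. The lower genes were BHLHE40 (-2.41), ETS1 (-1.49, from -2.58 to -0.39) and RUNX1T1 (-1.18, from -1.57 to -0.79). BHLHE40 rests on 1 microglial UMI, and its interval (-5.25 to 0.44) includes no difference. When the presumed doublets were kept, 10 of these factors passed upwards.

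All 9 measured genes of a macrophage list were at least 2-fold higher in microglia than in the mean of the other groups. Their median log2 ratio was 5.13. Most of them were low in the other groups and could be measured only through their microglial level. This count was therefore largely fixed by the rule for measured genes. COLEC12, among the 9, had a higher CPM in vascular cells than in microglia. STAB1, a scavenger receptor, led with 551 CPM, against 3.26 CPM. FOLR2 stood at 94.6 against 1.05 CPM, F13A1 at 543 against 6.01 CPM, SELENOP at 103 against 12.7 CPM and CD163L1 at 57.6 against 3.82 CPM. The bounds were at least 6.61 for MS4A7, 5.13 for CD163 and 4.17 for LYVE1. All F13A1 counts of microglia lay in the 10 nuclei described above, whereas STAB1 had 114 UMIs in the other 182 (525 CPM).

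**Figure D5:**
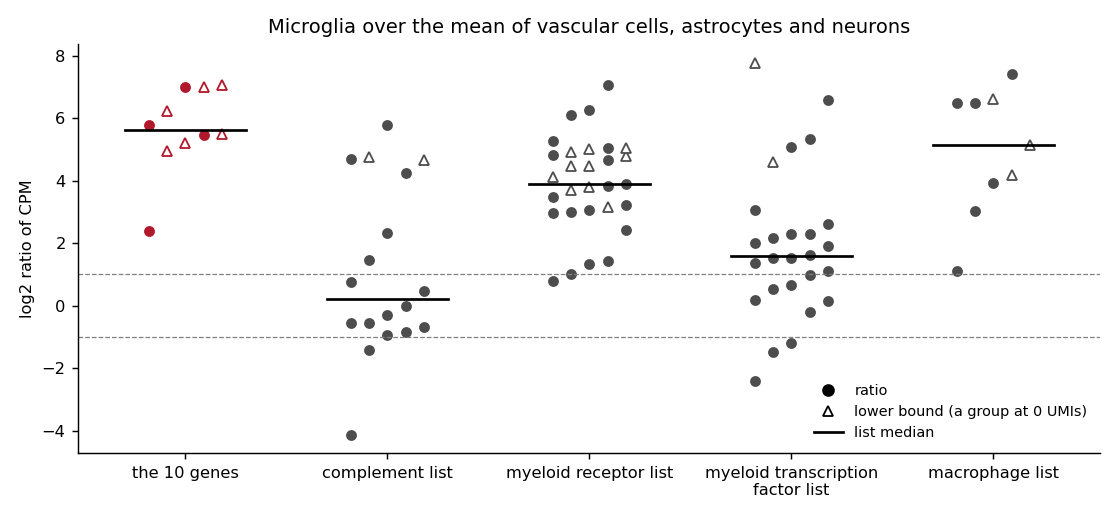
Log2 ratio of CPM, microglia over the mean of vascular cells, astrocytes and neurons, for each measured gene of the 10 and of 4 lists. Open triangles are lower bounds where a group had 0 UMIs, bars the list medians, and dashed lines the 2-fold marks. The 10 genes range from 2.40 to 7.07, and the complement list reaches up to 5.77.

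The complement list was also counted outside microglia. In vascular cells, against the mean of astrocytes and neurons, the 2-fold mark was passed upwards by 5 of 20 measured complement genes and downwards by 8. Over all genes measured in this comparison the shares were 16.8% upwards and 11.9% downwards. C7, a component of the terminal complex, stood at 31.4 CPM, against 0.425 CPM. SERPING1, the C1 inhibitor, stood at 16.5 against 4.99 CPM, CD55 at 31.4 against 11.6 CPM and CD59 at 28.1 against 12.8 CPM. C5 was the lowest (-3.11).

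In astrocytes, against neurons, 10 of 29 measured complement genes passed the mark upwards and 8 downwards. Over all genes measured in this comparison the shares were 19.1% upwards and 14.9% downwards. The higher ones included C5 (27.3 against 1.24 CPM), MASP1, a protease of the lectin pathway (55.4 against 5.37 CPM), and C8B (1.15 against 0.135 CPM). CLU, a secreted chaperone that blocks the terminal complex, stood at 593 against 85.3 CPM, and SERPING1 at 8.51 against 1.48 CPM. The lower ones were CSMD1 (2074 against 7976 CPM), CSMD2, CSMD3, SUSD4, CR1, CR2, C6 and C7. The receptor CR1 stood at 6.02 CPM in astrocytes, against 21.4 CPM in neurons.

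The other lists gave the following counts outside microglia. Over all genes measured, the shares were 16.8% higher and 11.9% lower in vascular cells, and 19.1% and 14.9% in astrocytes. As in microglia, genes low in the other groups could be measured in vascular cells only through their vascular level. In vascular cells, against the mean of astrocytes and neurons, 8 of 11 measured myeloid receptor genes were at least 2-fold higher and 1 lower, led by TGFBR2, a receptor for transforming growth factor beta (219.5 against 5.75 CPM). Of the transcription factors 10 of 23 were higher and 1 lower, led by FLI1 and ETS1, which are also known as endothelial factors (726 against 2.42 CPM and 233 against 4.69 CPM). Both measured macrophage genes were higher, COLEC12 (147 against 0.573 CPM) and SELENOP (31.4 against 3.30 CPM), and both were measured only through their vascular level. In astrocytes, against neurons, 12 of 33 measured receptor genes were at least 2-fold higher and 3 lower. MERTK and AXL, receptors for dying cells, led these, with 322 against 13.1 CPM and 79.0 against 7.45 CPM. Of the transcription factors 13 of 30 were higher, with CBFB, the partner of RUNX1, at 93.3 against 16.3 CPM, and 3 were lower, with RUNX2 at 31.8 against 104 CPM. Of the macrophage genes 3 of 10 were higher, with LYVE1 at 8.79 against 0.650 CPM, and 4 were lower, with F13A1 at 1.91 against 14.5 CPM.

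The genes most like each of the 10 were sought by Pearson correlation of log2(CPM + 5) over the 10 named classes, among 7570 genes held out of the clustering. The classes share libraries and differ in depth, and most of the likeness rests on 1 class, the microglia. C1QB was most like FGD2 (0.991) and NCKAP1L (0.987), C1QC most like TREM2 (0.9998) and RASAL3 (0.995), and C3 most like IKZF1 (0.993) and ITGAM (0.989). TREM2 was most like RASAL3 (0.995) and IRF8 (0.994), CD14 most like NCKAP1L among genes with a symbol (0.982), and ITGAM most like MS4A7 (0.997) and VAV1 (0.996). IRF8 was most like LRRC25 (0.997) and TREM2 (0.994), RUNX1 most like ITGAD (0.988) and NFAM1 (0.982), and MRC1 most like CHRNA1 (0.991) and TAGAP (0.988). SPI1 had the lowest likeness and other partners, PNPLA7 (0.959) and NUDT3 (0.939).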

How the data were processed

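The deposited table holds raw UMI counts, whole numbers for each gene in each nucleus. Per the submitters' processing notes, fastp and Cell Ranger (version 3.0.0) were used. The notes name the build GRCh38, although 5142 rows carry macaque Ensembl identifiers. The build behind the counts is therefore not settled, and no coordinates are given. Symbols were found for 851 of those rows. Libraries were made with a 10x Genomics 3′ kit, per the labels' protocols, so levels are those of nuclear RNA read near the 3′ end.

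Members and gene lists were chosen with earlier results of these data known. Genes of all lists stayed out of the clustering, which used 9824 genes, with 9884 held out. The highest Scrublet doublet scores in each barcode set, 0.8% per 1000 nuclei, were left out (677, 634 and 551 nuclei). Each nucleus was scaled to 10000 counts before log transformation. Then 2000 variable genes, 30 components, 15 neighbours and Leiden resolution 0.5 gave 20 clusters (scanpy 1.11.5, Python 3.11.15). Naming thresholds were set after the data were seen. Clusters needed a mean log2 marker ratio over 2 with 5 CPM added and a lead of 0.5. Inhibitory neurons needed a GAD1 and GAD2 sum above 300 CPM, and excitatory neurons SLC17A7 over 75, SV2B over 45 and RBFOX3 over 600 CPM. A median doublet score above 0.1 left a cluster unnamed.

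For each group, UMIs were summed and scaled to CPM, with exact 95% Poisson intervals. Shares have exact Clopper-Pearson intervals. A gene was measured with at least 10 UMIs in total over a comparison's groups and at least 5 expected in each group at the higher level. A count of 0 was set to 3 counts in ratios, and intervals of log2 ratios are approximate. The genes named from a list are up to 8 with the largest ratio in each direction. No test was made, since no label ties nuclei to samples. The calculations were tested on simulated data. One gene of the complement list enters the counts but is not reported here.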

Additional observations from a re-analysis of the deposited data

How the results depend on the processing

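All 10 genes stayed at least 2-fold higher in microglia than in the mean of vascular cells, astrocytes and neurons under every alternative run, except with a minimum of 50 UMIs, where the 9 genes still measured did. Leaving out a barcode set gave 10 in each case. No ratio that passed 2-fold changed sign. The ratios themselves moved more. After thinning to 500 UMIs, 10 of the 13 ratios that could still be given left the interval of the full counts. Of these, 9 were microglial ratios, all smaller, from 2.93 for TREM2 to 5.73 for ITGAM on the log2 scale, where a group at 0 UMIs makes several of them lower bounds. The other, C3 in astrocytes against neurons, turned to 0.70. With presumed doublets kept, 6 microglial ratios were smaller, from 1.12 for SPI1 to 5.77 for MRC1. Clustered on all genes but the 10, RUNX1 came to 4.92 and SPI1 to 1.81. The 1 gene higher in vascular cells (RUNX1) became 0 with presumed doublets kept, with a minimum of 50 UMIs and after thinning to 500 UMIs, 2 with no minimum, and 0 to 1 when a barcode set was left out. The 4 genes higher in astrocytes than in neurons became 1 after thinning. Of the lists in microglia, the 7 higher complement genes became 11 with no minimum, and the 28 higher myeloid receptor genes became 16 with a minimum of 50 UMIs, 14 after thinning and 18 without the nuclei that hold F13A1, in each case with fewer genes measured. The 17 higher transcription factors became 10 with presumed doublets kept, where microglia grew to 405 nuclei. Of the alternatives, 3 were chosen after the data were seen: microglia with the mixed sub-cluster, microglia without F13A1 nuclei and neurons without the cluster highest in PROX1. Shares of nuclei moved with depth: ITGAM was found in 25.8% of microglia at 1000 UMIs and 34.4% without thinning. Few UMIs per gene limit all microglial values. No paired analysis was possible because no label ties nuclei to samples and no test was made.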
